A study of Mus musculus with 6 samples.

Results

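Apoptosis regulators and p53 targets were followed as a set of 48 named genes, of 23337 in the deposited count table. They cover p53 with its regulators, the BCL2 family, the death receptor arm, the apoptosome and caspases, the inhibitors of apoptosis and the transcriptional targets of p53. Of these, 47 were found by symbol and 1, Pidd1, by its older symbol Lrdd. A level filter left 36 of the 48 for testing.

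The cells were C57BL6 mouse bone marrow granulocyte-monocyte progenitors carrying ER-HOXA9, in which the homeobox factor HOXA9 is joined to the estrogen receptor so that estradiol keeps such progenitors immature and dividing. Polyadenylated RNA was sequenced in 3 groups of 2 biological replicates. The first was cultured 3 days with 200 nM GSK-LSD1, 5 µM mercaptopurine and 5 µM cerulenin together (drugs). GSK-LSD1 blocks LSD1, a demethylase of histone H3, mercaptopurine is a purine analog that disturbs DNA synthesis, and cerulenin blocks fatty acid synthase. The second group was cultured 3 days with DMSO (vehicle), and the third was taken untreated at day 0. All 3 groups carried the fusion and grew with stem cell factor and 0.5 µM beta-estradiol. The drugs were given together, so the part of each cannot be told apart, and the sources used here do not say whether the replicates were separate clones or animals.

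In mitochondrial apoptosis, BH3-only proteins such as BIM, PUMA and NOXA bind the pro-survival proteins BCL2, BCL-XL and MCL1, which frees BAX and BAK to open the outer mitochondrial membrane. Released cytochrome c then assembles APAF1 and caspase 9 into the apoptosome, while SMAC (Diablo) relieves the block that the inhibitor of apoptosis proteins place on caspases. Death receptors such as FAS enter the same route through FADD and caspase 8. p53, held low by MDM2 and MDM4, switches on several of these genes together with genes of cell cycle arrest and DNA repair, and MCL1 and BCL2 are known survival factors of myeloid progenitors.

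Libraries held between 11305666 and 16948697 counts. Levels are CPM, counts per 1000000 counts of the library total after TMM scaling (trimmed mean of M values), and changes are log2 ± SE from the edgeR quasi-likelihood F test, with p adjusted by Benjamini-Hochberg over all 11283 genes tested and a threshold of 0.05. All 9 granulocyte-monocyte progenitor markers were detected, with summed levels of 10450 to 11010 CPM with the drugs, 8356 to 8604 CPM with vehicle and 7432 to 7750 CPM at day 0. Mpo, myeloperoxidase, made up most of that sum, with 6513 and 6950 CPM with the drugs, against 4645 and 4644 CPM with vehicle and 3493 and 4025 CPM at day 0. Other markers had other orders: the granule protease Ctsg had 707 and 769 CPM with the drugs, against 888 and 1022 CPM with vehicle, and Csf1r, the receptor of the macrophage growth factor, had 15.3 and 16.3 CPM with the drugs, against 1.58 and 1.92 CPM with vehicle and 1.38 and 1.33 CPM at day 0. T and NK cell markers had 0 counts in all libraries, and erythroid and mature neutrophil lists summed to at most 1.38 and 2.21 CPM. The mast and basophil list was nearly all Cpa3, a mast cell protease also made by myeloid progenitors. That list summed to 1125 to 1212 CPM with the drugs, 479 to 496 CPM with vehicle and 903 to 1089 CPM at day 0. Its other members did not share the higher level with the drugs. Mcpt8 had 22.58 and 19.09 CPM with the drugs, against 25.05 and 26.07 CPM with vehicle. Ms4a2 had 0.721 and 1.42 CPM with the drugs, against 1.58 and 2.01 CPM with vehicle, and Fcer1a was at 0. Of the macrophage list, C1qa and C1qc were at 0, and Adgre1 (F4/80) had 66.4 to 67.8 CPM with the drugs, 17.6 to 20.5 CPM with vehicle and 24.8 to 28.9 CPM at day 0. The megakaryocyte list, mostly Itga2b, summed to 13.6 to 17.7 CPM with the drugs, 15.5 to 20.3 CPM with vehicle and 32.6 to 43.8 CPM at day 0. Gp9 of that list had 0.640 and 0.516 CPM with the drugs, 3.00 and 3.93 CPM with vehicle, and 4.13 and 3.32 CPM at day 0. The stroma list, nearly all Pecam1, summed to 241.9 to 242.8 CPM with the drugs, 170.7 to 176 CPM with vehicle and 216.4 to 226.2 CPM at day 0. The ribosomal RNA precursor Rn45s took 15.7% and 15.9% of the counts with the drugs, 16.1% and 14.6% with vehicle, and 20.4% and 24.6% at day 0. The part of such shifts in the changes below was not tested. In bulk RNA, fewer cells of a type and less RNA per cell cannot be told apart.

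Levels of different genes were compared as CPM per kilobase of the deposited gene length. The genes spread over several orders of magnitude. The effector Bak1 averaged 53.4 CPM per kilobase over the 6 libraries, followed by Mcl1 with 49.7, the BH3-only gene Bid with 41.8 and Mdm4 with 40.0. Bak1 and Mcl1 are not separated, because Mcl1 was the higher of both at day 0 (57.9 against 57.6 CPM per kilobase) and with the drugs (43.3 against 43.2), and Bak1 with vehicle (59.4 against 47.8). Trp53 itself was in the middle of the order with 7.83 CPM per kilobase, below Mdm2 with 17.8.

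**Figure D1:**
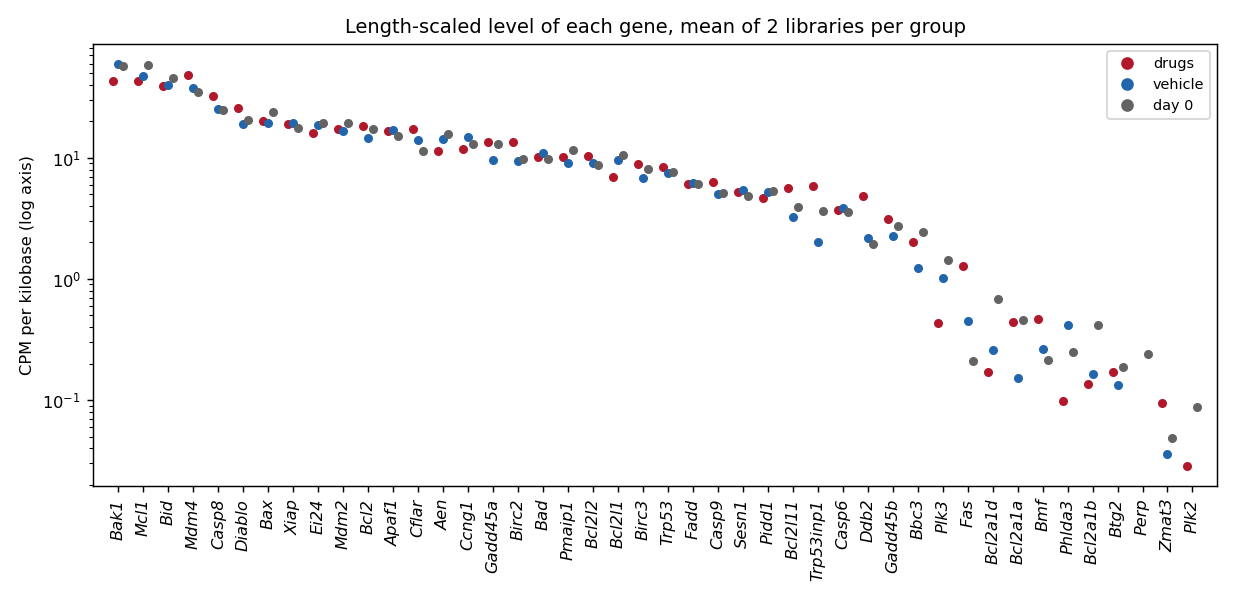
Length-scaled level (CPM per kilobase, log axis) of each gene that had at least 1 count, as the mean of 2 libraries in cells with the drugs (red), with vehicle (blue) and at day 0 (grey). Bak1, Mcl1, Bid and Mdm4 stand at the top and the Bcl2a1 copies, Phlda3, Btg2, Perp, Zmat3 and Plk2 at the bottom, and a group mean of 0 is not drawn.

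The 12 untested genes were near or at 0. Bok, Bik, Hrk and Eda2r had 0 counts in all 6 libraries, which allows up to 0.179 to 0.251 CPM per library (a limit of 3 counts, covering counting error only). BOK is an effector of the BCL2 family, BIK and HRK are BH3-only proteins, and EDA2R is a TNF receptor family member induced by p53. Zmat3, Btg2, Phlda3, Perp and Plk2, all p53 targets, had at most 13 counts in any library. Perp, an epithelial membrane protein, had 11 counts in day 0 replicate 2 and 0 in the other 5 libraries.

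The other untested genes were the 3 copies of Bcl2a1, which encode the pro-survival protein A1 on chromosome 9. Their coding sequences of 516 bases are 97.87% to 98.84% identical in GENCODE M21. The first 60 coding bases are shown because they hold 6 of the 12 positions at which the copies differ (capitals) and so show how little sequence separates them.

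Bcl2a1a: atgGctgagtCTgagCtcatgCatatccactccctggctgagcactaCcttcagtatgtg
Bcl2a1b: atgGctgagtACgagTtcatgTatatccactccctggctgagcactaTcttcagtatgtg
Bcl2a1d: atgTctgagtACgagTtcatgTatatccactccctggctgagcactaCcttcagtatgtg

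How reads with several matches were counted is not given, so the split between these copies is uncertain. Their summed counts were 6 and 11 with the drugs, 3 and 8 with vehicle, and 23 and 13 at day 0. Day 0 libraries were the highest and the drug and vehicle libraries overlapped. Tested as 1 gene, the sum was not called with the drugs relative to vehicle (log2 change 0.43, adjusted p = 0.604), nor relative to day 0 with vehicle (-1.46, adjusted p = 0.0843) or with the drugs (-1.03, adjusted p = 0.0711). The sum reached the filter level in the day 0 libraries alone, so a rise over day 0 was nearly out of reach for it.

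Relative to vehicle, the drugs raised 13 of the 36 tested genes and lowered 5. The calls were 50% of the tested genes, against 31.9% of all 11283 genes, with 18.1% of all genes called higher and 13.8% called lower. The median log2 change of the 36 genes was 0.18, against 0.000753 for all genes, and the median absolute change 0.34, against 0.20. Of these 36 genes, 4 changed over 2-fold, where 6.66% of all genes did. Fas had 2 libraries over the filter level of 0.781 CPM in the drug group alone, so a call in the lower direction was nearly out of reach for it. Relative to a minimum change of 1.5-fold (edgeR glmTreat), Trp53inp1 and Ddb2 alone of the 18 stayed called. The alternatives named with single genes below are further ones that ended a call. With a drug or vehicle library left out, fewer genes were called over all genes too.

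**Figure D2:**
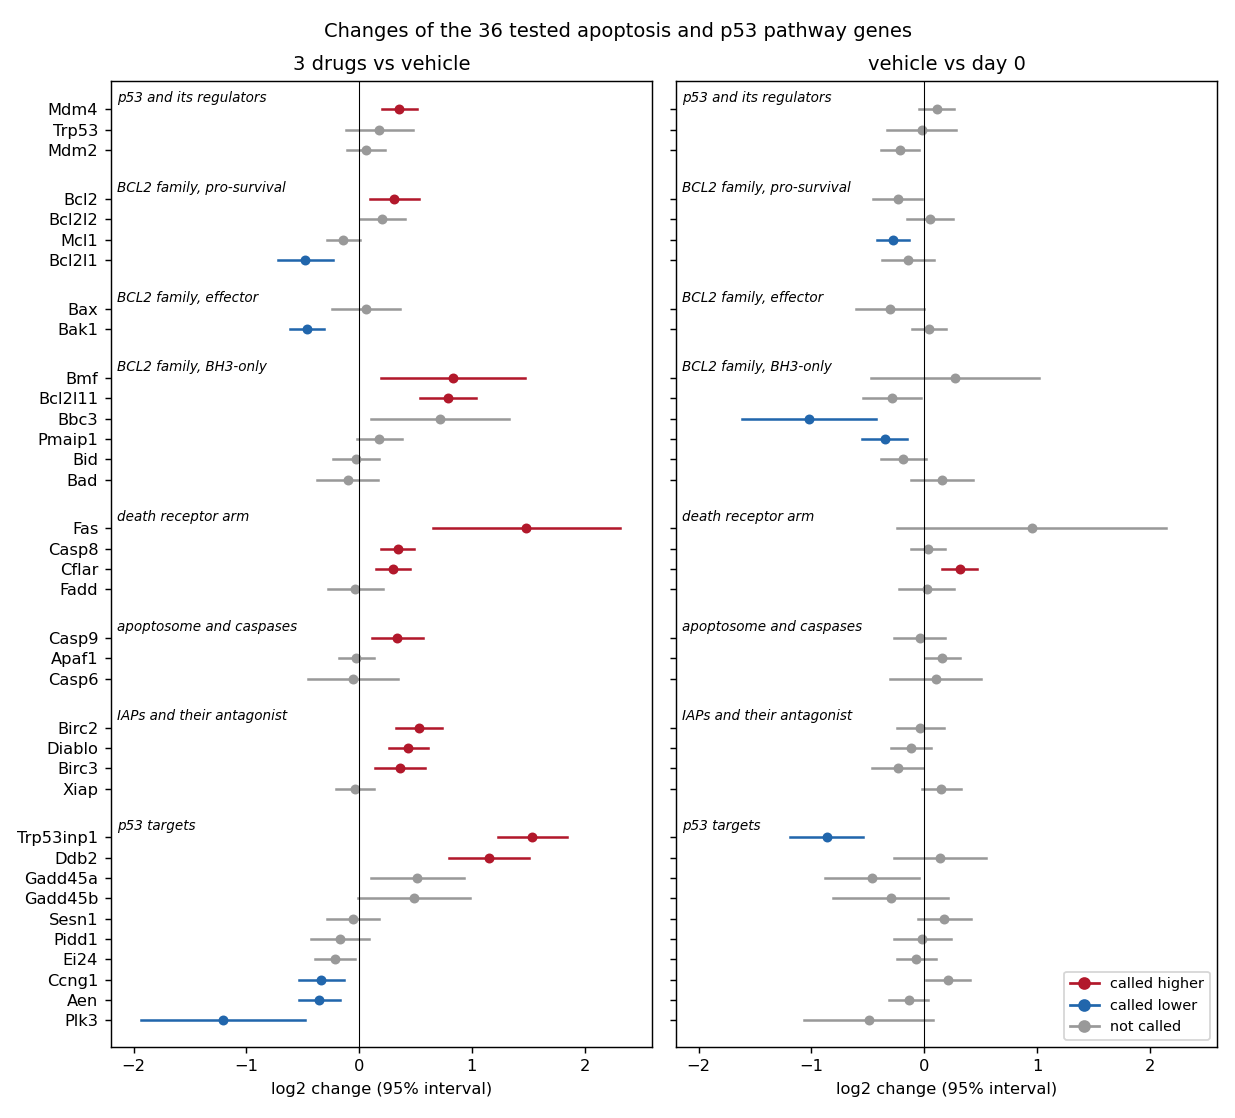
Log2 change with its 95% interval (edgeR) of the 36 tested genes, grouped by role, for the drugs against vehicle (left) and vehicle against day 0 (right), with called rises in red, called falls in blue and other genes in grey. Trp53inp1, Fas and Ddb2 stand furthest right and Plk3 furthest left in the drug comparison, and vehicle libraries enter both panels.

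Trp53 and its main inhibitor were not called. Trp53 (chromosome 11, 69580359 to 69591873, mm10) had 15.4 and 16.1 CPM with the drugs, against 12.01 and 15.9 CPM with vehicle and 13.8 and 14.6 CPM at day 0. The drug and vehicle libraries overlapped, and the log2 change was 0.18 ± 0.138 (adjusted p = 0.347, 95% interval -0.12 to 0.48). Mdm2, the ubiquitin ligase that degrades p53 and is itself a p53 target, had 54.0 and 51.5 CPM with the drugs, against 52.7 and 48.1 CPM with vehicle and 58.0 and 58.9 CPM at day 0. It was highest at day 0 and overlapped between the day 3 groups (log2 change 0.06 ± 0.0783, adjusted p = 0.57, 95% interval -0.10 to 0.23). Mdm4, the relative of MDM2 that blocks the transactivation domain of p53, rose with the drugs. It had 167 and 168 CPM with the drugs, against 134 and 127 CPM with vehicle and 116 and 127 CPM at day 0, without overlap between drug and vehicle libraries (log2 change 0.36 ± 0.0713, adjusted p = 0.00208).

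The pro-survival genes moved in different directions. Bcl2l1, which encodes BCL-XL, fell to 16.0 and 16.7 CPM with the drugs, against 23.9 and 21.7 CPM with vehicle and 26.8 and 23.4 CPM at day 0. Both drug libraries were below all other libraries (log2 change -0.48 ± 0.113, adjusted p = 0.00619), and the call ended when drug replicate 1 was left out (adjusted p = 0.0623). Bcl2 had 143 and 138 CPM with the drugs, against 125 and 102 CPM with vehicle and 123 and 144 CPM at day 0. It was lowest in vehicle replicate 2, and the drug libraries lay above both vehicle libraries but within the day 0 range.

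The rise of Bcl2 over vehicle was called (log2 change 0.31 ± 0.0992, adjusted p = 0.0291), and its size moved with the vehicle libraries. It was 0.47 without vehicle replicate 1 and 0.16 without vehicle replicate 2. Without drug replicate 1 or drug replicate 2 it was 0.29 and 0.34. The call ended without drug replicate 1, drug replicate 2 or vehicle replicate 2, each of which left 1 library in a group. Mcl1, the short-lived relative of BCL2, had 152 and 150.4 CPM with the drugs, against 170.1 and 163 CPM with vehicle and 204 and 199 CPM at day 0. Its 3 groups did not overlap and day 0 was highest, but the change with the drugs was not called (-0.14 ± 0.0675, adjusted p = 0.13). Bcl2l2, which encodes BCL-W, had 36.9 and 35.1 CPM with the drugs, against 30.0 and 32.3 CPM with vehicle and 28.6 and 31.7 CPM at day 0, and was not called relative to vehicle.

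Per kilobase, Mcl1 made up 54.4% and 54.6% of the summed level of the 7 pro-survival genes with the drugs, against 58.1% and 59.0% with vehicle and 61.2% and 59.4% at day 0. Bcl2 made up 23.1% and 22.6% with the drugs, against 19.2% and 16.6% with vehicle and 16.5% and 19.4% at day 0. Bcl2l1 made up 8.45% and 8.91%, against 11.99% and 11.6% with vehicle and 11.8% and 10.3% at day 0. The sum itself was 80.0 and 79.1 CPM per kilobase with the drugs, 83.9 and 79.2 with vehicle, and 95.8 and 96.2 at day 0, so the day 3 groups overlapped and both lay under day 0.

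**Figure D3:**
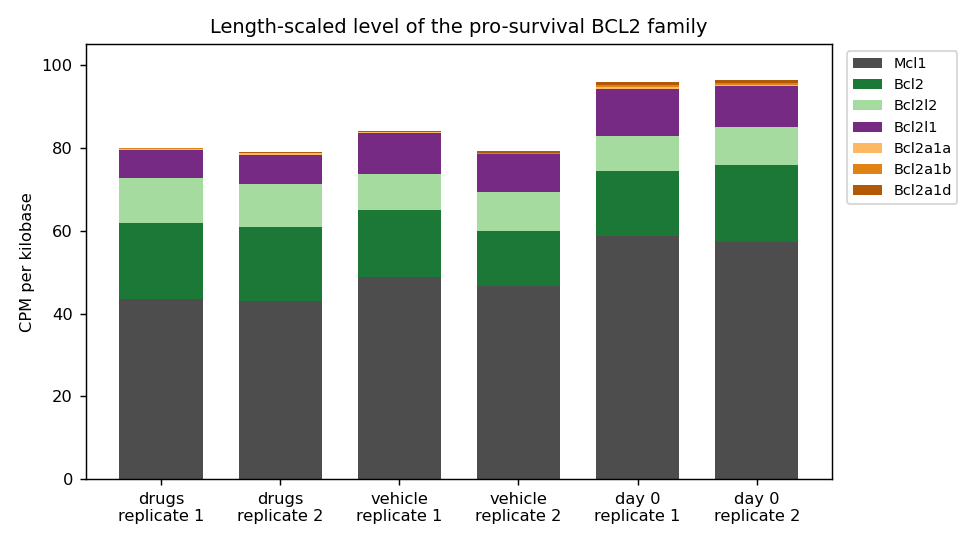
Stacked levels (CPM per kilobase) of the 7 pro-survival BCL2 family genes in each library, with drug libraries on the left, then vehicle and day 0. Mcl1 is the largest part in all 6 libraries, Bcl2l1 is smallest in the drug libraries, and the Bcl2a1 copies are barely visible.

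Of the effectors, Bak1 fell and Bax was not called. Bak1 had 84.7 and 88.2 CPM with the drugs, against 123.5 and 114 CPM with vehicle and 113 and 117 CPM at day 0. Both drug libraries were under the other 4 (log2 change -0.46 ± 0.0703, adjusted p = 0.000295). Bax, a p53 target in several tissues, had 16.3 and 18.8 CPM with the drugs, against 15.8 and 18.1 CPM with vehicle and 23.3 and 18.1 CPM at day 0, with overlapping groups (0.06 ± 0.141, adjusted p = 0.777, 95% interval -0.24 to 0.37).

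Of 6 tested BH3-only genes, 2 rose, where 18.1% of all genes were called higher. Bcl2l11, which encodes BIM (chromosome 2, 128126038 to 128162547), had 28.9 and 27.7 CPM with the drugs, against 17.6 and 15.0 CPM with vehicle and 21.05 and 18.4 CPM at day 0. Both drug libraries were above the other 4, and the rise was 0.79 ± 0.115 on the log2 scale (adjusted p = 0.000187). Bmf, a BH3-only protein tied to the cytoskeleton, was low, with 26 and 35 counts with the drugs, against 15 and 15 with vehicle and 18 and 11 at day 0. Its groups did not overlap in CPM, with 2.08 and 2.26 CPM with the drugs, against 1.19 and 1.25 CPM with vehicle and 1.08 and 0.914 CPM at day 0. The call was near the threshold (log2 change 0.83 ± 0.294, adjusted p = 0.0461) and ended with DESeq2 (adjusted p = 0.294), with library totals (0.0591) and whenever a drug or vehicle library was left out (0.14 to 0.219).

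Bbc3, which encodes PUMA, a p53 target and a strong binder of all pro-survival proteins, had 3.28 and 4.64 CPM with the drugs, against 2.21 and 2.67 CPM with vehicle and 5.86 and 3.82 CPM at day 0. Vehicle libraries were the lowest, and the drug and day 0 libraries overlapped. The difference between drugs and vehicle was not called (log2 change 0.72 ± 0.284, adjusted p = 0.072), though it was with no level filter (adjusted p = 0.0151), with these 2 groups alone (0.0394) or when a day 0 library was left out (0.0346 and 0.035). It was not called with DESeq2 (adjusted p = 0.193) or library totals (0.139), and leaving out drug replicate 2 brought the change to 0.43 (adjusted p = 0.454). Pmaip1, which encodes NOXA, the partner of MCL1 and a p53 target, had 26.9 and 27.4 CPM with the drugs, against 23.8 and 24.2 CPM with vehicle and 29.5 and 31.8 CPM at day 0, with vehicle lowest, and was not called between the drugs and vehicle. Bid, which links caspase 8 to mitochondria, had 74.7 and 74.4 CPM with the drugs, against 67.6 and 84.6 CPM with vehicle. Bad, which growth factor signals restrain, had 15.1 and 14.5 CPM with the drugs, against 14.7 and 17.05 CPM with vehicle. Both overlapped between the groups and were not called. Exons of Bad overlap those of Gpr137 on the opposite strand, which rose by 0.58 ± 0.112 (adjusted p = 0.00163), and the strand setting of the counting is not given.

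**Figure D4:**
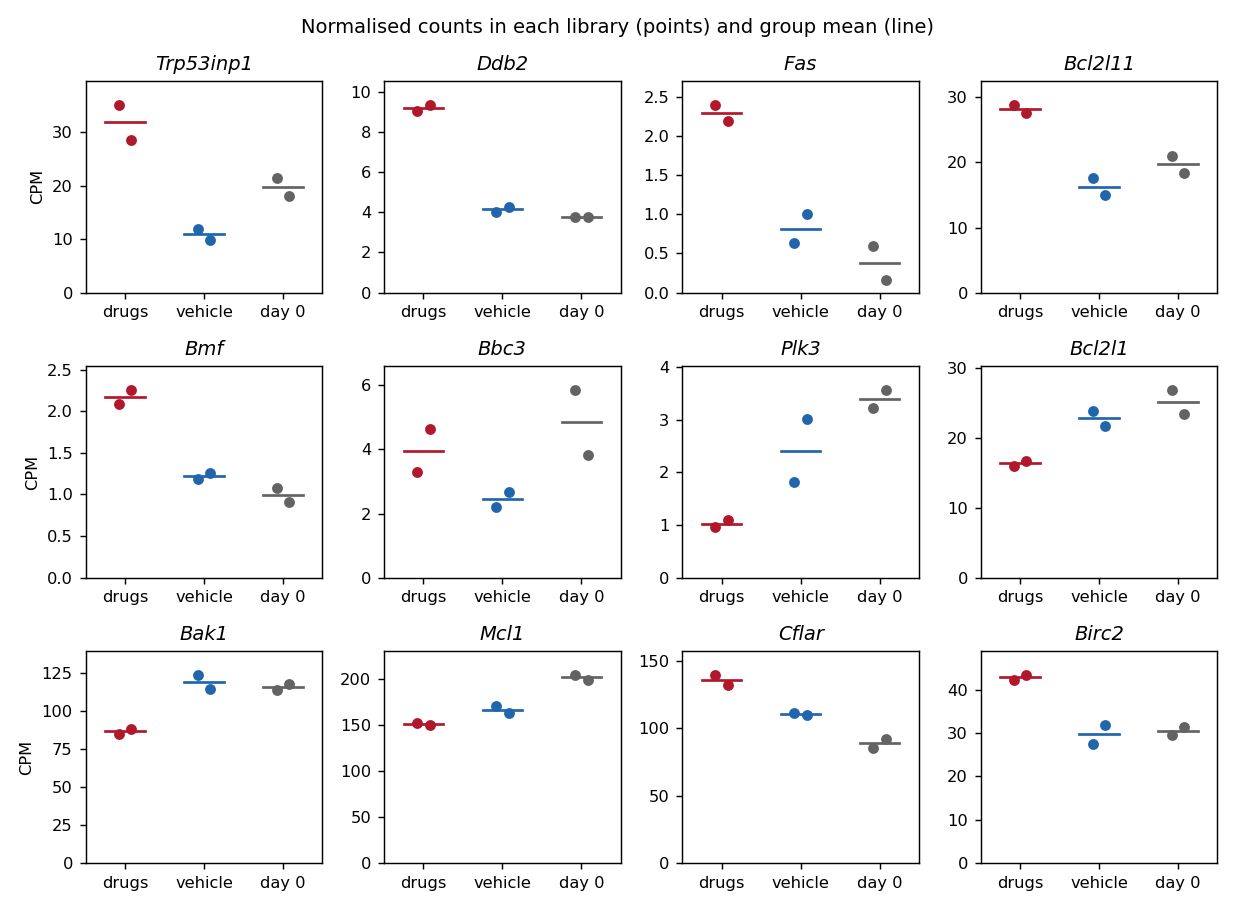
Normalised counts (CPM, axes from 0) of 12 genes in each library (points) with the group mean of 2 libraries (line), for the drugs (red), vehicle (blue) and day 0 (grey). Drug libraries lie above the other 4 for Trp53inp1, Ddb2, Fas, Bcl2l11, Bmf, Cflar and Birc2, and under them for Plk3, Bcl2l1, Bak1 and Mcl1.

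In the death receptor arm, 3 of 4 genes rose, where 18.1% of all genes were called higher. Fas among them reached the filter level in the drug group alone. Fas, the receptor itself and a p53 target, had 30 and 34 counts with the drugs, against 8 and 12 with vehicle and 10 and 2 at day 0. These are 2.40 and 2.19 CPM with the drugs, against 0.632 and 1.003 CPM with vehicle and 0.598 and 0.166 CPM at day 0, so the drug libraries stood above all others at a low level. The log2 change was 1.48 ± 0.383 (adjusted p = 0.0104), a call that ended with DESeq2 (adjusted p = 0.0736) and when drug replicate 1 (0.0647) or vehicle replicate 1 (0.103) was left out.

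Casp8, the initiator caspase recruited to FAS, rose to 89.4 and 89.5 CPM with the drugs, against 72.1 and 69.2 CPM with vehicle and 70.4 and 67.4 CPM at day 0 (0.34 ± 0.0682, adjusted p = 0.00217). Cflar, which encodes FLIP, the inhibitor of caspase 8, had 139.6 and 132 CPM with the drugs, against 110.9 and 109.8 CPM with vehicle and 85.5 and 92.2 CPM at day 0. Its 3 groups did not overlap, and the rise over vehicle of 0.30 ± 0.0693 (adjusted p = 0.00559) ended when drug replicate 1 was left out (adjusted p = 0.102). The adaptor Fadd had 16.9 and 17.8 CPM with the drugs, against 17.1 and 18.5 CPM with vehicle, and was not called.

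Of the apoptosome genes and caspases, Casp9 rose, with 25.4 and 24.3 CPM with the drugs, against 20.5 and 18.7 CPM with vehicle and 20.9 and 19.4 CPM at day 0 (0.34 ± 0.104, adjusted p = 0.0245). The call ended with DESeq2 (adjusted p = 0.125), with library totals (0.0728) and when drug replicate 1 (0.169), drug replicate 2 (0.0978) or vehicle replicate 2 (0.152) was left out. Apaf1, the scaffold of the apoptosome, had 111 and 108 CPM with the drugs, against 116 and 107 CPM with vehicle. Casp6, an executioner caspase, had 5.76 and 5.10 CPM with the drugs, against 5.21 and 6.02 CPM with vehicle. Neither was called, and the groups overlapped for both.

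Genes of the inhibitor of apoptosis proteins and of their antagonist were called higher in 3 of 4, against 18.1% of all genes. Birc2, which encodes the ubiquitin ligase cIAP1, had 42.2 and 43.4 CPM with the drugs, against 27.5 and 31.8 CPM with vehicle and 29.5 and 31.3 CPM at day 0, with both drug libraries above the rest (0.53 ± 0.0927, adjusted p = 0.00083). Diablo, whose product SMAC antagonises these proteins, rose in the same libraries, with 49.9 and 50.5 CPM with the drugs, against 35.6 and 38.6 CPM with vehicle and 40.9 and 39.4 CPM at day 0 (0.44 ± 0.0805, adjusted p = 0.00125). Birc3, which encodes cIAP2, an NF-kB target, had 25.5 and 24.2 CPM with the drugs, against 18.3 and 20.3 CPM with vehicle and 22.8 and 22.5 CPM at day 0 (0.36 ± 0.103, adjusted p = 0.0166). That call ended with DESeq2 (adjusted p = 0.0887), with library totals (0.0602) and when drug replicate 1 (0.138), drug replicate 2 (0.0718) or vehicle replicate 1 (0.119) was left out. Xiap, the direct caspase inhibitor, had 123 and 125 CPM with the drugs, against 137 and 117 CPM with vehicle, which overlapped, and was not called.

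The p53 targets split, with 2 of 10 tested genes higher and 3 lower, where 18.1% of all genes were called higher and 13.8% lower. Trp53inp1, a stress-induced nuclear protein that cooperates with p53 (chromosome 4, 11156441 to 11174377), had 35.2 and 28.6 CPM with the drugs, against 12.01 and 9.86 CPM with vehicle and 21.5 and 18.2 CPM at day 0. Its 3 groups did not overlap, with vehicle lowest, and the rise of 1.54 ± 0.143 (adjusted p = 3.75e-06) had the smallest p of the 36 genes. Ddb2, a damage sensor of nucleotide excision repair (chromosome 2, 91211582 to 91237066), had 9.05 and 9.35 CPM with the drugs, against 4.03 and 4.26 CPM with vehicle and 3.77 and 3.74 CPM at day 0 (1.15 ± 0.163, adjusted p = 0.000156). Exons of Ddb2 overlap those of Acp2 on the opposite strand, and Acp2, a lysosomal phosphatase, had 28.4 and 29.5 CPM with the drugs, against 31.3 and 27.2 CPM with vehicle, and was not called (-0.01 ± 0.0964, adjusted p = 0.93).

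The falls were Plk3, Aen and Ccng1. Plk3, a stress-responsive polo-like kinase, had 12 and 17 counts with the drugs, against 23 and 36 with vehicle and 54 and 43 at day 0. These are 0.961 and 1.10 CPM with the drugs, against 1.82 and 3.01 CPM with vehicle and 3.23 and 3.57 CPM at day 0, with no overlap between the groups. The change of -1.20 ± 0.336 (adjusted p = 0.0156) was not called with DESeq2 (adjusted p = 0.0539) or when drug replicate 1 (0.0922), drug replicate 2 (0.0687) or vehicle replicate 2 (0.167) was left out. Exons of Plk3 overlap those of Tctex1d4 on the opposite strand, which had 0 counts in the day 3 libraries and 4 and 3 at day 0.

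Aen, an apoptosis-enhancing nuclease, had 28.3 and 29.9 CPM with the drugs, against 37.9 and 36.4 CPM with vehicle and 41.0 and 40.9 CPM at day 0, so the drug libraries were the lowest (-0.35 ± 0.0841, adjusted p = 0.00666). It was not called when drug replicate 1 was left out (adjusted p = 0.0892). Ccng1, cyclin G1, which acts on MDM2 through protein phosphatase 2A, had 42.8 and 39.6 CPM with the drugs, against 52.3 and 51.5 CPM with vehicle and 41.4 and 48.6 CPM at day 0. Vehicle libraries were the highest, and the change of -0.33 ± 0.0908 (adjusted p = 0.0136) was not called when drug replicate 2 (adjusted p = 0.144) or vehicle replicate 1 (0.0531) was left out.

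The other 5 tested targets were not called. Gadd45a, a growth arrest and repair gene, had 15.4 and 17.8 CPM with the drugs, against 9.09 and 14.3 CPM with vehicle and 18.1 and 13.7 CPM at day 0 (0.52 ± 0.191, adjusted p = 0.0559). The value rested on which vehicle library was used: the change was 0.22 without vehicle replicate 1 (adjusted p = 0.419) and 0.86, a called change, without vehicle replicate 2 (adjusted p = 0.00603). It was not called with DESeq2 (adjusted p = 0.0923) or library totals (0.158), and was called with no level filter (adjusted p = 0.00105), with these 2 groups alone (0.0351) and when a day 0 library was left out (0.0234 and 0.0248). Its paralog Gadd45b had 3.84 and 4.13 CPM with the drugs, against 2.37 and 3.34 CPM with vehicle. Ei24, which encodes an endoplasmic reticulum protein, had 36.2 and 36.9 CPM with the drugs, against 44.1 and 40.8 CPM with vehicle, without overlap (-0.22 ± 0.0812, adjusted p = 0.0597). Ei24 was called lower with library totals, with library sizes without Rn45s, with these 2 groups alone and when vehicle replicate 2 or either day 0 library was left out (adjusted p = 0.0406 to 0.0492). Sesn1, a sestrin that restrains mTORC1, had 17.5 and 17.6 CPM with the drugs, against 18.4 and 17.97 CPM with vehicle. Pidd1, the scaffold of the caspase 2 complex, had 13.9 and 13.2 CPM with the drugs, against 15.1 and 15.3 CPM with vehicle.

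Promoter windows of 42 of the 48 genes are in the RefSeq table used here (GRCm38.p6), with 56 windows of 300 bases, each from 250 bases before to 50 bases after an annotated start. Trp53inp1, Ddb2, Zmat3, Perp, Bik and Pmaip1 are not among them. Searched on both strands, the p53 decamer motif (the unit that occurs as a pair in a complete p53 site, counted without mismatch) lay in a window of 10 of the 42 genes, against 9.55% of all 27025 genes with a window. These were Aen, Bax, Birc2, Bmf, Ccng1, Ei24, Gadd45a, Mdm2, Sesn1 and Trp53. Neighbouring pairs of that motif with at most 13 bases between them were in 0 of the 56 windows and in 0.0731% of all windows. Sites outside these windows or with a mismatch were not searched, so these genes may hold pairs elsewhere. The FOXO core GTAAACA lay in windows of Bbc3, Bcl2l11, Eda2r, Mdm2 and Sesn1, 5 of 42 against 4.05% of all genes, and FOXO factors are known from other cells to drive Bcl2l11 and Bbc3. The motifs did not overlap one another in these windows.

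The windows below show these motifs in capitals for Aen and Ccng1, which fell, for Bcl2l11, which rose, and for Mdm2, which was not called and holds both. They lie at chr7:78895677-78895976 (plus strand), chr11:40755237-40755536 (minus), chr2:128125788-128126087 (plus) and chr10:117710709-117711008 (minus).

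Aen: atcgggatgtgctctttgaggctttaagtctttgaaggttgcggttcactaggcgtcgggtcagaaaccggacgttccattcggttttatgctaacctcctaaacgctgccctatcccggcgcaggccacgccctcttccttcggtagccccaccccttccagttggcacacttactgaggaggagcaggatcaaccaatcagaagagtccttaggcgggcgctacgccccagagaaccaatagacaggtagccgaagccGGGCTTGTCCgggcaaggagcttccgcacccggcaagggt
Ccng1: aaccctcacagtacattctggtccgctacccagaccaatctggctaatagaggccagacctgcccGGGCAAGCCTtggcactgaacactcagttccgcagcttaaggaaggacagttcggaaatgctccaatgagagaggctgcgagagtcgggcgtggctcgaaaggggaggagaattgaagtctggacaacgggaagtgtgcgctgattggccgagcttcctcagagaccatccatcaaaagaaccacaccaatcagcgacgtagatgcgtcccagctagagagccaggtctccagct
Bcl2l11: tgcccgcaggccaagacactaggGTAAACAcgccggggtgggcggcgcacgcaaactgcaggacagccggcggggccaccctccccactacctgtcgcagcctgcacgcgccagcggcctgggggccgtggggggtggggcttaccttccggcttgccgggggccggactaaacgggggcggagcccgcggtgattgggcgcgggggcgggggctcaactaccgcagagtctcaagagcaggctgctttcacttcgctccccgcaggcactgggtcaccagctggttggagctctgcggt
Mdm2: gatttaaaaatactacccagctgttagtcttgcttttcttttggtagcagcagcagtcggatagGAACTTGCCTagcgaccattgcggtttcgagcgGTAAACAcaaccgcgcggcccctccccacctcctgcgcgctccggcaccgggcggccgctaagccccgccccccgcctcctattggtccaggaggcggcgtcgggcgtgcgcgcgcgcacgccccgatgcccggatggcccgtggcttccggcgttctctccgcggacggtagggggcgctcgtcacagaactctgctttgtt

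In Ccng1 the decamer begins 185 bases before the annotated start, in Mdm2 186 bases before it, and in Aen 10 bases after the start of the window shown. Aen has another annotated start, and the same decamer begins 121 bases before that start. GTAAACA begins 227 bases before the start in Bcl2l11 and 153 bases before it in Mdm2. Genes holding the p53 decamer thus included called rises (Birc2, Bmf), called falls (Aen, Ccng1) and genes that were not called (Bax, Ei24, Gadd45a, Mdm2, Sesn1, Trp53). A match is a description of the letters and not a binding site.

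In the 3 days of culture with vehicle, 1 of the 36 tested genes rose and 4 fell relative to day 0, 13.9% of them against 7.74% of all genes, with 3.75% of all genes called higher and 3.99% lower. Their median log2 change was -0.04, against -0.02 for all genes. Over 2-fold, 1 of the 36 changed, where 1.17% of all genes did. With library totals in place of TMM, which moves the median of all genes to 0.104 (log2), 5 of the 36 were higher and 1 was lower. The split over all 11283 genes then became 1742 higher and 216 lower, in place of 423 and 450. The change of Rn45s was -0.68 ± 0.198 (adjusted p = 0.054), and library sizes without it gave the same 5 calls. Vehicle libraries are the control of the drug comparison too, so changes in both comparisons are given side by side only. Trp53inp1 fell to 10.9 ± 1.52 CPM with vehicle, against 19.8 ± 2.32 CPM at day 0 (mean ± SD, n = 2 each), a log2 change of -0.86 ± 0.149 (adjusted p = 0.00405), next to its change of 1.54 with the drugs relative to vehicle. Cflar was the gene that rose, to 110.4 ± 0.792 CPM with vehicle, against 88.9 ± 4.73 CPM at day 0 (0.31 ± 0.0706, adjusted p = 0.0172). That call ended when drug replicate 1 (adjusted p = 0.0504), vehicle replicate 1 (0.0843) or day 0 replicate 1 (0.12) was left out.

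The other falls under vehicle were Bbc3, Pmaip1 and Mcl1. Bbc3 averaged 2.44 ± 0.327 CPM with vehicle and 4.84 ± 1.44 CPM at day 0 (log2 change -1.02 ± 0.273, adjusted p = 0.0387). It was not called when vehicle replicate 1 (adjusted p = 0.23), vehicle replicate 2 (0.0656) or day 0 replicate 1 (0.353) was left out, and the change came to -0.65 in the last case. Pmaip1 averaged 24.0 ± 0.261 CPM with vehicle and 30.6 ± 1.65 CPM at day 0 (-0.35 ± 0.0927, adjusted p = 0.037), and Mcl1 averaged 166.6 ± 5.00 CPM with vehicle and 201.9 ± 3.66 CPM at day 0 (-0.28 ± 0.067, adjusted p = 0.025). Both had no overlap between groups. The call of Pmaip1 ended whichever of the 6 libraries was left out (adjusted p = 0.0602 to 0.167), and that of Mcl1 for each library other than day 0 replicate 2 (0.0765 to 0.102). DESeq2, library totals and a fit of these 2 groups alone each ended the calls of Bbc3 (adjusted p = 0.123, 0.073 and 0.0547), Pmaip1 and Mcl1.

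Relative to day 0, the drug libraries, which are those of the first comparison, had 12 genes higher and 6 lower, 50% of those tested against 43.9% of all genes, with 22.7% of all genes called higher and 21.2% lower. Over 2-fold, 4 of the 36 changed, where 8.12% of all genes did. With library totals 14 of the 36 were higher and 5 lower, and the split over all genes became 3138 higher and 1322 lower, in place of 2564 and 2394. Rn45s changed by -0.61 ± 0.197 (adjusted p = 0.0234), and library sizes without it kept all 18 calls. Fas was higher by 2.43 ± 0.426 (adjusted p = 0.000607), with 10 and 2 counts at day 0. Its change was 3.71 without day 0 replicate 1 and 1.91 without day 0 replicate 2. Fas reached the filter level in the drug group alone, so a call in the lower direction was nearly out of reach here too. Ddb2 was higher by 1.29 ± 0.161 (adjusted p = 4.03e-05), Trp53inp1 by 0.67 ± 0.128 (adjusted p = 0.00111) and Cflar by 0.61 ± 0.0697 (adjusted p = 1.89e-05). Bmf was higher by 1.10 ± 0.295 (adjusted p = 0.00898), a call that ended when drug replicate 2 was left out (adjusted p = 0.0737) and with DESeq2 (0.0997). Bcl2l11 was higher by 0.51 ± 0.11 (adjusted p = 0.00248). The other genes called higher were Birc2, Mdm4, Casp8, Diablo, Casp9 and Bcl2l2, with log2 changes between 0.26 and 0.50. Of these, the calls of Diablo, Casp9 and Bcl2l2 ended when drug replicate 2 was left out (adjusted p = 0.0618, 0.104 and 0.106). The calls of Casp9 and Bcl2l2 also ended for drug replicate 1 (0.18 and 0.214), for day 0 replicate 2 in Casp9 (0.112) and for day 0 replicate 1 in Bcl2l2 (0.209), and with DESeq2 (0.137 and 0.147).

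Plk3 had the most negative change of the 36 relative to day 0 ( -1.70 ± 0.305, adjusted p = 0.00073). Bcl2l1 changed by -0.62 ± 0.11 (adjusted p = 0.000625), Aen by -0.49 ± 0.0823 (adjusted p = 0.000445), Mcl1 by -0.42 ± 0.067 (adjusted p = 0.000307) and Bak1 by -0.41 ± 0.07 (adjusted p = 0.000464). Ei24 changed by -0.29 ± 0.0798 (adjusted p = 0.0116), a call that ended when either drug library was left out (adjusted p = 0.104 and 0.0687), with DESeq2 (0.0689) and with library totals (0.0845). Bcl2 was not called relative to day 0 (0.08 ± 0.0979, adjusted p = 0.552), nor were Bbc3 (-0.30 ± 0.24, adjusted p = 0.328), Trp53 (0.16 ± 0.135, adjusted p = 0.37), Mdm2 (-0.15 ± 0.0766, adjusted p = 0.136) or Bax (-0.24 ± 0.135, adjusted p = 0.163). For Bax the change was -0.41 and called without day 0 replicate 2 (adjusted p = 0.0207), and -0.04 without day 0 replicate 1 (adjusted p = 0.863).

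Other genes of the same pathways were read from a pair of lists that hold none of the 48. Of 20 further p53 targets, 19 were tested, and 4 rose and 5 fell with the drugs relative to vehicle, 47.4% of them against 31.9% of all genes. Steap3, an iron reductase, fell to 24.4 and 26.7 CPM with the drugs, against 62.4 and 54.8 CPM with vehicle (log2 change -1.20 ± 0.0989, adjusted p = 1.34e-06). Gdf15, a stress-induced cytokine, changed by -1.14 ± 0.399 (adjusted p = 0.0438), and Dcxr, a carbonyl reductase, by 0.80 ± 0.257 (adjusted p = 0.0314). Both were low. Gdf15 had 0.961 and 0.710 CPM with the drugs, against 1.66 and 2.01 CPM with vehicle. Dcxr had 3.20 and 3.16 CPM with the drugs, against 1.58 and 2.09 CPM with vehicle. Ptprv, Cdkn1a and Tigar also rose (log2 changes of 0.60, 0.50 and 0.39). Gtse1, Rps27l and Fdxr also fell (-0.46, -0.40 and -0.32). With vehicle relative to day 0, 3 were called (15.8%, against 7.74% of all genes), all lower: Sesn2, a paralog of Sesn1 (-0.67 ± 0.143, adjusted p = 0.014), Slc19a2, a thiamine transporter (-0.55 ± 0.139, adjusted p = 0.0315), and Rps27l (-0.51 ± 0.122, adjusted p = 0.0234), whose counts are uncertain because Rps27 is a close paralog.

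Of 26 further apoptosis genes, 23 were tested, and 3 rose and 3 fell with the drugs relative to vehicle, 26.1% of them against 31.9% of all genes. Bcl2l14, a member of the BCL2 family, had 2.48 and 2.13 CPM with the drugs, against 1.26 and 1.09 CPM with vehicle (0.95 ± 0.318, adjusted p = 0.0364). Bnip3, a mitophagy receptor, rose by 0.59 ± 0.153 (adjusted p = 0.0103) with 21.1 and 30.9 CPM with the drugs, against 17.2 and 17.6 CPM with vehicle. Htra2, a mitochondrial protease that also antagonises the inhibitor of apoptosis proteins, changed by -0.36 ± 0.0821 (adjusted p = 0.00481), with 58.1 and 62.1 CPM with the drugs, against 73.2 and 81.6 CPM with vehicle. With vehicle relative to day 0, edgeR called 0 of the 23, against 7.74% of all genes. DESeq2 also called 0, where it called 255 higher and 236 lower over all genes. In edgeR, 7 of the 23 had an unadjusted p under 0.05, and the share of all genes at that level is not given here.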

How the data were processed

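Gene-level read counts were deposited by the authors as 1 whole-number table with a length in base pairs per gene (featurecount, per the labels). Reads were processed with STAR 2.7.0f and deepTools 3.0.2 on mm10, per the submitters' processing notes; the annotation release, strand and multi-mapping settings are unknown here. Counts were tested with edgeR 4.0.16 (R 4.3.3) by the quasi-likelihood F test in 1 fit of 3 groups and 6 libraries, which left 3 residual degrees of freedom. Genes reaching 0.781 CPM in at least 2 libraries were kept, with TMM scaling and Benjamini-Hochberg adjustment over 11283 genes. The SE was derived from the F statistic. Alternatives were DESeq2 1.42.0, other scalings and filters, a replicate block and each library left out. The procedure was tested on simulated counts.

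Members and lists were chosen with earlier results of these data known. Values per library are given for members past the threshold with an absolute log2 change of at least 0.58, and for Trp53, Mdm2, Mcl1, Bcl2, Bcl2l1, Bax and Bcl2l11, with other members more briefly. For other pathway genes, up to 3 called per list and comparison were named by size of change. The labels call the replicates biological without saying from what, so p-values measure the spread between these libraries. Replicate libraries differed by more than counting noise in each group (chi-square per degree of freedom 1.85 with the drugs, 5.78 with vehicle and 14.1 at day 0). Promoter windows are from RefSeq (GRCm38.p6), gene spans and coding sequences from GENCODE (GRCm38). A motif had to match exactly.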

Additional observations from a re-analysis of the deposited data

How the results depend on the processing

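Of the 36 tested genes, edgeR called 13 higher and 5 lower with the drugs relative to vehicle, 1 higher and 4 lower with vehicle relative to day 0, and 12 higher and 6 lower with the drugs relative to day 0. RLE size factors, no level filter, a stricter filter and library sizes without the ribosomal RNA precursor Rn45s kept each of these counts within 1.5 times. Against a minimum of 1.5-fold the counts were 2 higher and 0 lower, 0 higher and 0 lower, and 2 higher and 1 lower in the same order. With vehicle relative to day 0, library totals gave 5 higher and 1 lower, while DESeq2 and a fit of these 2 groups alone each gave 1 lower. Over all genes, library totals gave 1742 higher and 216 lower, DESeq2 255 and 236, and the fit of 2 groups 269 and 258. Leaving out single libraries gave 7 to 15 higher and 2 to 7 lower with the drugs relative to vehicle, the fewest without drug replicate 1, and 0 to 2 higher and 1 to 5 lower with vehicle relative to day 0. Where that left 1 library in a group, it was assumed to vary like the others. The replicate block gave 0 higher and 1 lower with vehicle relative to day 0 (222 and 261 over all genes, against 423 and 450 without it), but replicate numbers alone do not show pairing: deviations of same-numbered libraries correlated at 0.0807 (drugs and vehicle), -0.199 (vehicle and day 0) and -0.0604 (drugs and day 0). A crossed pairing, added after the data were seen, gave 664 higher and 742 lower over all genes with vehicle relative to day 0. With library totals, log2 changes with vehicle relative to day 0 turned to 0.0517 for Ei24 and 0.0997 for Trp53. When single libraries were left out, uncalled changes crossed 0 with the drugs relative to vehicle for Bax (-0.0526 to 0.154), Mdm2 (-0.0136 to 0.13) and Trp53 (-0.0115 to 0.378), with vehicle relative to day 0 for Trp53 (-0.223 to 0.168), and with the drugs relative to day 0 for Bbc3 (-0.595 to 0.0724), Bcl2 (-0.0421 to 0.187) and Gadd45a (-0.124 to 0.28). Of the remaining single-gene values, 840 kept direction and call, 117 lost the call and 23 gained one. The cause was not tested. Depth limits Fas, Bmf, Plk3 and the Bcl2a1 copies, all at most 54 counts in any library.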

Other observations

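With the drugs relative to day 0, the list of 19 tested p53 targets outside the 48 had 3 genes higher and 7 lower, where 43.9% of all genes were called. Gdf15 changed by -1.58 ± 0.363 on the log2 scale (edgeR, adjusted p = 0.00369), Steap3 by -1.14 ± 0.0983 (adjusted p = 1.48e-06) and Rps27l by -0.91 ± 0.124 (adjusted p = 8.17e-05). Gdf15 was low, with 0.961 and 0.710 CPM with the drugs, against 3.05 and 1.74 CPM at day 0. The 3 genes higher were Tigar, Ptprv and Cdkn1a (log2 changes of 0.51, 0.50 and 0.47). The other genes lower were Slc19a2, Sesn2, Fdxr and Gtse1 (-0.74, -0.56, -0.38 and -0.36). Of the 23 tested further apoptosis genes, 3 were higher and 6 lower with the drugs relative to day 0, 39.1% of them against 43.9% of all genes. Bnip3 changed by 0.69 ± 0.151 (adjusted p = 0.00275), Htra2 by -0.53 ± 0.0809 (adjusted p = 0.000217) and Tnfrsf1a, a receptor of TNF, by 0.47 ± 0.0756 (adjusted p = 0.000336). The drug libraries in these values are those of the comparison with vehicle.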
